A study of Homo sapiens with 9 samples.

Results

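The cholesterol synthesis and SREBP genes described here are 30 listed genes: 5 regulators of the pathway, 18 synthesis enzymes, 5 genes of sterol transport and storage, and 2 fatty acid genes. They were chosen by name, with earlier results of these data known. All 30 were found among the 26636 genes listed in every library. They were also among the 13014 genes tested, those with a mean of at least 1 FPKM. FPKM divides the fragments of a gene by its length in kilobases and by the depth of the library, so levels of different genes are compared here per length. RNA sequencing was carried out on 9 libraries labelled BT549, with the genotype given as WT throughout; BT549 is a human breast cancer line of the triple-negative class. The cells had been transfected with siWFDC21P-1 (3 libraries), siWFDC21P-2 (3 libraries) or the control siRNA siNC (3 libraries). Both knockdown siRNAs are named after WFDC21P, a pseudogene transcript. All cells received 5 µl of a 10 µM siRNA stock, were harvested after 48 h and gave 1 µg of RNA per library. The siRNA sequences and the number of separate cultures were not given in the sources used here. The library names of the siWFDC21P-2 group carry 3 different siRNA numbers that the labels do not explain, and the titles were followed.

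Cells make cholesterol from acetyl-CoA, first through mevalonate to farnesyl diphosphate, then through squalene to lanosterol, and finally through a chain of reductions, demethylations and isomerisations. The SREBP transcription factors switch these genes on together when membrane sterol is low. SCAP escorts the SREBPs out of the endoplasmic reticulum for cleavage, and the INSIG proteins hold SCAP back when sterol is plentiful. The activity of SREBP is set largely by this cleavage, so the RNA level of an SREBP gene does not measure it. Breast cancer cells use the pathway for membranes and for the lipid anchors of signalling proteins.

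The libraries did not fall by siRNA, and each result below is therefore given against the siNC library of the same expression set. Clustering on all genes but the listed ones gave 3 sets. Set 1 held siWFDC21P-1 replicates 1 and 2 with siNC replicate 1, and set 2 held siWFDC21P-1 replicate 3 with the library labelled siNC replicate 2. Set 3 held the 3 siWFDC21P-2 libraries with siNC replicate 3. The Pearson correlation of log2(FPKM + 1) across genes reached 0.927 to 0.986 inside a set, against 0.658 to 0.743 for libraries of different sets. The labelled cell type was checked against 6 mesenchymal markers, which BT549 cells are known for, and 6 epithelial ones. All 6 mesenchymal markers reached 1 FPKM in set 3, where they summed to 465.4 to 566.0 FPKM. In set 1 they summed to 47.4 to 49.3 FPKM, with CDH2 at 0 to 0.00698 FPKM, and in set 2 to 6.44 to 12.0 FPKM, with CDH2 and COL1A2 listed at 0. In set 1, 3 of the 6 reached 1 FPKM, and in set 2, 1 did. The epithelial markers summed to 93.9 to 233.3 FPKM in set 1, where 2 of the 6 reached 1 FPKM and KRT8 alone had 93.4 to 232.0 FPKM, with EPCAM at 0 to 0.0412 FPKM. In set 2 all 6 reached 1 FPKM and summed to 1006.3 to 1570.5 FPKM, and in set 3 2 of the 6 did, with a sum of 5.23 to 7.53 FPKM. The mesenchymal markers of the label were thus absent in part from sets 1 and 2, and the sets were given no cell type name. Whether the sets hold different cells under the same label was not tested, nor was the part of these differences in the levels below. In such bulk RNA, fewer cells of a type and less RNA per cell cannot be told apart. Depth was 28.1 to 29.7 M reads in sets 1 and 2 and 16.3 to 17.4 M in set 3. WFDC21P itself (hg38, chromosome 17, 60083566 to 60091885, minus strand) had 0.0629, 0.767 and 0.227 FPKM in siWFDC21P-1 replicates 1 to 3 and 4.13, 3.32 and 2.12 FPKM in siWFDC21P-2 replicates 1 to 3. The siNC libraries had 3.08, 0.129 and 6.87 FPKM, so the library labelled siNC replicate 2 stood at the level of the siWFDC21P-1 libraries, with 7 reads in siWFDC21P-1 replicate 3 and 4 reads in that siNC library. WFDC21P was at 0.0204 to 0.602 of the siNC level in the other 5 libraries given a WFDC21P siRNA, whereas siWFDC21P-1 replicate 3 was not lower than its siNC library (ratio 1.76, 95% counting interval 0.448 to 8.21). Directions in set 2 rest on this pair.

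The promoters of 26 members are in the RefSeq table used here (GRCh38.p14, 250 bases before to 50 after each start, 32 windows); ACAT2, FDFT1, SQLE and FASN were not matched. They were searched on both strands for the sterol regulatory element TCACNCCAC, the NF-Y box CCAAT, whose factor acts beside SREBP, and the E-box CACGTG, which SREBP can also bind. An exact match to TCACNCCAC was found in 1 of the 26 members, SREBF2, and in 1.39% of all 27305 genes with a promoter. An NF-Y box stood in 19 of 26 members, against 39.7% of all genes, and an E-box in 5 of 26, against 8.77%. A match is a description of these letters and not of binding. Variant spellings and sites outside these windows were not searched, so no match does not mean that a promoter lacks an element. The windows below belong to a regulator with the element (SREBF2), to the INSIG pair, whose RNA levels lay on opposite sides of the control, and to an enzyme with 5 NF-Y boxes (MVK). They are printed 5′ to 3′ on the sense strand, and capitals mark the sterol regulatory element and the NF-Y boxes, which read ATTGG where they lie on the other strand. The regions are chr22:41832855-41833154 for SREBF2, chr7:155297628-155297927 for INSIG1, chr2:118088221-118088520 for INSIG2 (1 of its 2 windows) and chr12:109573544-109573843 for MVK, all on the plus strand.
SREBF2: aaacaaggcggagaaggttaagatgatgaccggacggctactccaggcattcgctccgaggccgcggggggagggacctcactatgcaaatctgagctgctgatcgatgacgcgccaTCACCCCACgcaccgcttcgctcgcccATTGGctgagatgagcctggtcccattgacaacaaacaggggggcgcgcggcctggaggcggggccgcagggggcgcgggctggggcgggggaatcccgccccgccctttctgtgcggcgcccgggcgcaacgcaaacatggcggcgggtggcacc
INSIG1: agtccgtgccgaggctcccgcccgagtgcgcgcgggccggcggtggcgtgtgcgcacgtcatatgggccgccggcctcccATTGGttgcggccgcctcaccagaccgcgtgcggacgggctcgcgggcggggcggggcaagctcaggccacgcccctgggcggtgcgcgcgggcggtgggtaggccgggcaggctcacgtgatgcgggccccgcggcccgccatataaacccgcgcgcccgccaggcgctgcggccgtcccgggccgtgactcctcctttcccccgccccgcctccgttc
INSIG2: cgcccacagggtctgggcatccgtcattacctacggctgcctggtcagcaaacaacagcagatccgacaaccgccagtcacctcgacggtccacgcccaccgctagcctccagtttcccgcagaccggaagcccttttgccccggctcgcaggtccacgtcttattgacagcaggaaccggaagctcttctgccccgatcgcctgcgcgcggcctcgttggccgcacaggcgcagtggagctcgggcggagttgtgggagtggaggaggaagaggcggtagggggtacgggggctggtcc
MVK: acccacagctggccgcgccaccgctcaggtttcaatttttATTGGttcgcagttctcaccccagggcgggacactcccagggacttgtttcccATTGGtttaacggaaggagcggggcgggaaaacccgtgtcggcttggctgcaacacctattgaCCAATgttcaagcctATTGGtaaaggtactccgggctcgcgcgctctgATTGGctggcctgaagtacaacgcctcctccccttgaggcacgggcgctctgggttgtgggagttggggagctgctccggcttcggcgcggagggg
In SREBF2 the element begins 133 bases before the start and is followed by an NF-Y box 106 bases before it. INSIG1 has 1 NF-Y box, 170 bases before the start, and an E-box 55 bases before it, which is not in capitals. Neither window of INSIG2 holds any of the motifs searched. In MVK the boxes begin 210, 157, 94, 79 and 46 bases before the start.

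Before any knockdown was considered, the pathway was expressed in all 9 libraries, at levels that depended on the gene and, for some genes, on the set. SCD, the desaturase that makes monounsaturated fatty acids, was the most abundant member in every library (148.9 to 1165.6 FPKM), and FASN, the fatty acid synthase, had 47.8 to 124.4 FPKM. CYP51A1, the lanosterol demethylase, stood lowest among the enzymes in most libraries (0.711 to 1.92 FPKM, 58 to 226 reads). Of its annotated exon bases, 83.2% are shared with other genes, 2 of them on its own strand, and 3 pseudogenes carry its name. How reads on shared bases were counted is not given in the sources used here, and the part of this in its level was not tested. NSDHL, a sterol dehydrogenase, varied least, with 27.7 to 37.7 FPKM.

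The largest span belonged to ABCA1, the pump that exports cholesterol from the cell. It had 0.146 to 0.720 FPKM in set 1, 1.13 to 3.63 FPKM in set 2 and 3.72 to 7.22 FPKM in set 3, so that the ranges of the 3 sets did not overlap. EBP, the sterol isomerase, was instead lowest in set 3, at 5.47 to 11.4 FPKM. It had 31.2 to 38.9 FPKM in set 1 and 48.8 to 50 FPKM in set 2. TM7SF2, a sterol reductase, had 0.588 to 1.15 FPKM in set 1, 1.85 to 2.78 FPKM in set 2 and 2.84 to 6.02 FPKM in set 3. DHCR7, the reductase of the last step to cholesterol, had 62.0 to 77.8 FPKM in set 2, against 17.4 to 36.7 FPKM over the other libraries. These are descriptions without a test, because the sets were made from expression. Every set 3 library lay above all others for 4 members (TM7SF2, NCEH1, ABCA1 and SCD), a share of 13.3% against 15.1% of all tested genes. It lay below all others for 4 members (SCAP, HSD17B7, EBP and FASN), against 20.6% of all tested genes. Set 2 stood above the rest for 4 members (FDFT1, EBP, SC5D and DHCR7; background 19.1%) and below it for SCD alone (background 12.6%). Set 1 stood above the rest for SCAP and FDPS (background 14.1%) and below it for INSIG1, FDFT1, TM7SF2, SC5D and ABCA1, which is 16.7% of the members (background 13.6%). These shares lie near or below the backgrounds, so the set differences are not a result about the list. The median log2(FPKM + 1) of the 30 members was 4.18 in set 1, 4.28 in set 2 and 4.17 in set 3.

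**Figure D1:**
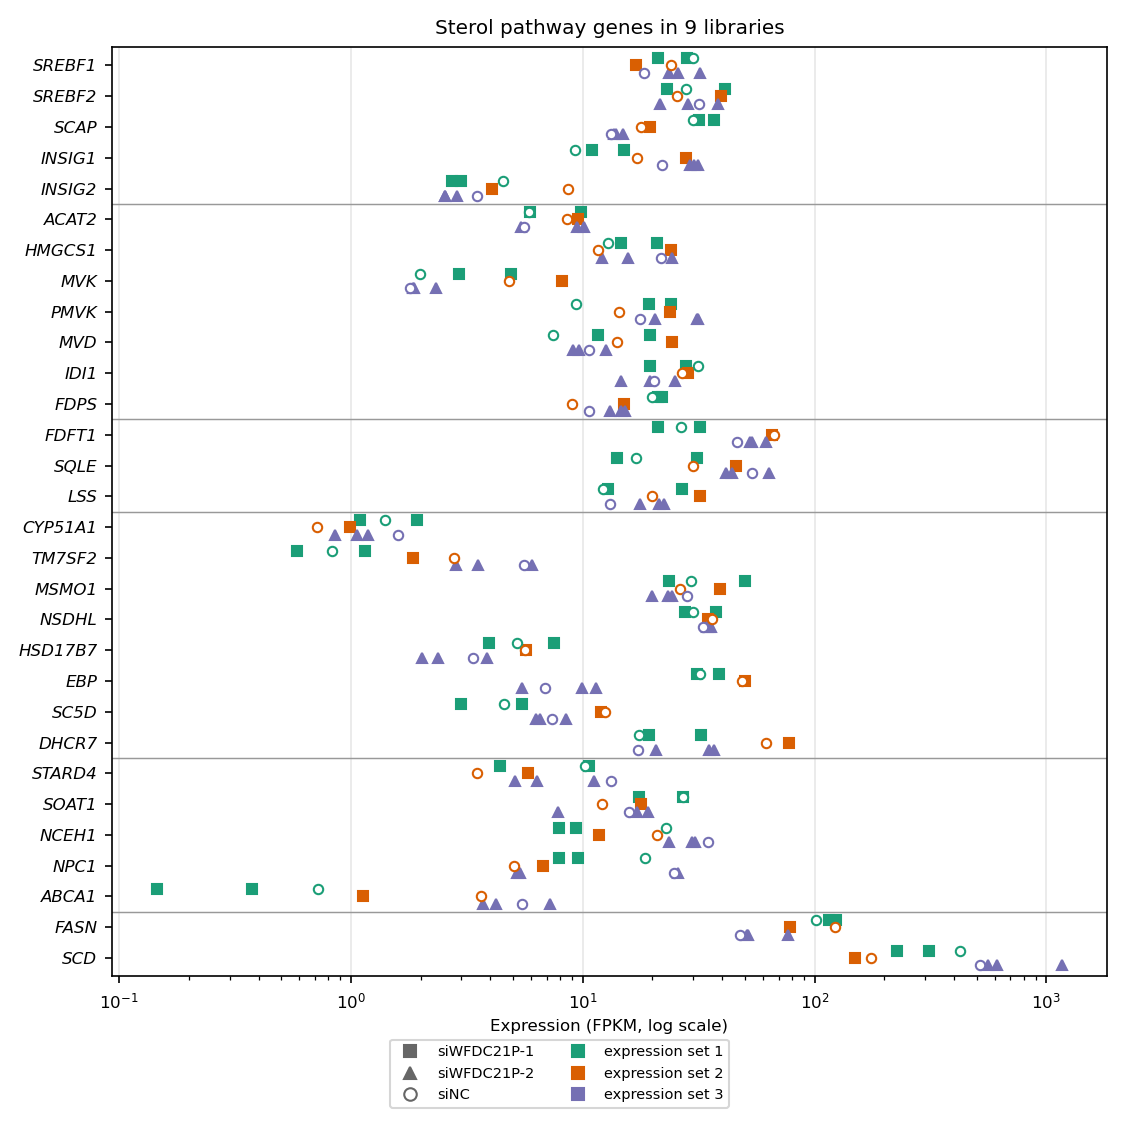
Expression of the 30 members in FPKM (log axis) in each of the 9 libraries, ordered by role from regulators (top) to fatty acid genes (bottom). Filled squares are siWFDC21P-1, triangles siWFDC21P-2 and open circles siNC libraries, and colours mark the expression sets. ABCA1 spans 0.146 to 7.22 FPKM with no overlap between the sets, and EBP is at 5.47 to 11.4 FPKM in set 3 against at least 31.2 FPKM elsewhere.

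Each library given a WFDC21P siRNA, called a knockdown library here after its label, was then set against the siNC library of its set, which compares the sterol genes under the 2 kinds of siRNA. Across both siRNAs, 7 members stood above their siNC library in all 6 knockdown libraries: SCAP, INSIG1, MVK, PMVK, FDPS, LSS and DHCR7. This is 23.3% of the members, against 10.8% of all tested genes. The 95% counting interval of the ratio included 1 for SCAP in siWFDC21P-2 replicates 1 and 2 and for MVK in replicates 2 and 3. It also included 1 for LSS in siWFDC21P-1 replicate 2. INSIG2 and NCEH1 stood below their siNC library in all 6 (6.67%, against 7.92% of all tested genes). Of these 6 libraries, siWFDC21P-1 replicate 3 did not have less WFDC21P than its control. Without it, a choice made after seeing the data, the same 7 members and FASN stood above in all 5 libraries (26.7%, against 14% of all tested genes), and INSIG2 and NCEH1 below (6.67%, against 11.7%). None of the 30 members passed the test at an adjusted p of 0.05 in any comparison (limma on log2(FPKM + 1) with the set as a term, Benjamini-Hochberg over 13014 genes). The median log2 fold change over the 18 synthesis enzymes was 0.19 for both siRNAs together, with 13 positive, beside a median of 0.03 over all tested genes. For siWFDC21P-1 it was 0.30, with 14 of 18 positive, and for siWFDC21P-2 it was 0.02, with 9 of 18 positive. The medians over all tested genes were 0.03 and 0.02. In siWFDC21P-1 replicates 1 to 3 the enzyme median was 0.56, -0.01 and 0.27 by library. There 16, 9 and 14 of 18 enzymes were higher, against 49.4%, 55% and 53.9% of all tested genes. Replicate 3 is the library without less WFDC21P than its control. The median over the 5 transport and storage genes was -0.51 for both siRNAs together, and all 5 were negative. Among them were SOAT1 at -0.05 ± 0.30 and STARD4 at -0.34 ± 0.35. By library, 1, 0 and 3 of these 5 were higher than the control in siWFDC21P-1 replicates 1 to 3. In siWFDC21P-2 replicates 1 to 3, 2, 1 and 1 were. Of all tested genes, 47.1% to 55% were higher in each knockdown library.

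The test had few calls to give over all genes. For siWFDC21P-1 it called 0.0154% of all tested genes as higher (2 genes) and 0.00768% as lower (1 gene). For both siRNAs together it called 0.00768% as higher and 0% as lower. For siWFDC21P-2 it called 0% of genes in either direction, while 376 genes were higher and 306 lower at an unadjusted p under 0.05, and limma-voom on recovered reads also called 0. At an unadjusted p under 0.05, 4 members were higher with siWFDC21P-1 (13.3%, against 8.69% of all tested genes) and 3 lower (10%, against 5.06%). With siWFDC21P-2 there were 0 in either direction, against 2.89% higher and 2.35% lower over all genes. With both siRNAs together 6 were higher (20%, against 9.16%) and 2 lower (6.67%, against 5.22%). The fit rests on 1 siNC library per set, and leaving out siWFDC21P-2 replicate 1 turned the count of all called genes for both siRNAs from 1 into 204 and let PMVK pass.

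**Figure D2:**
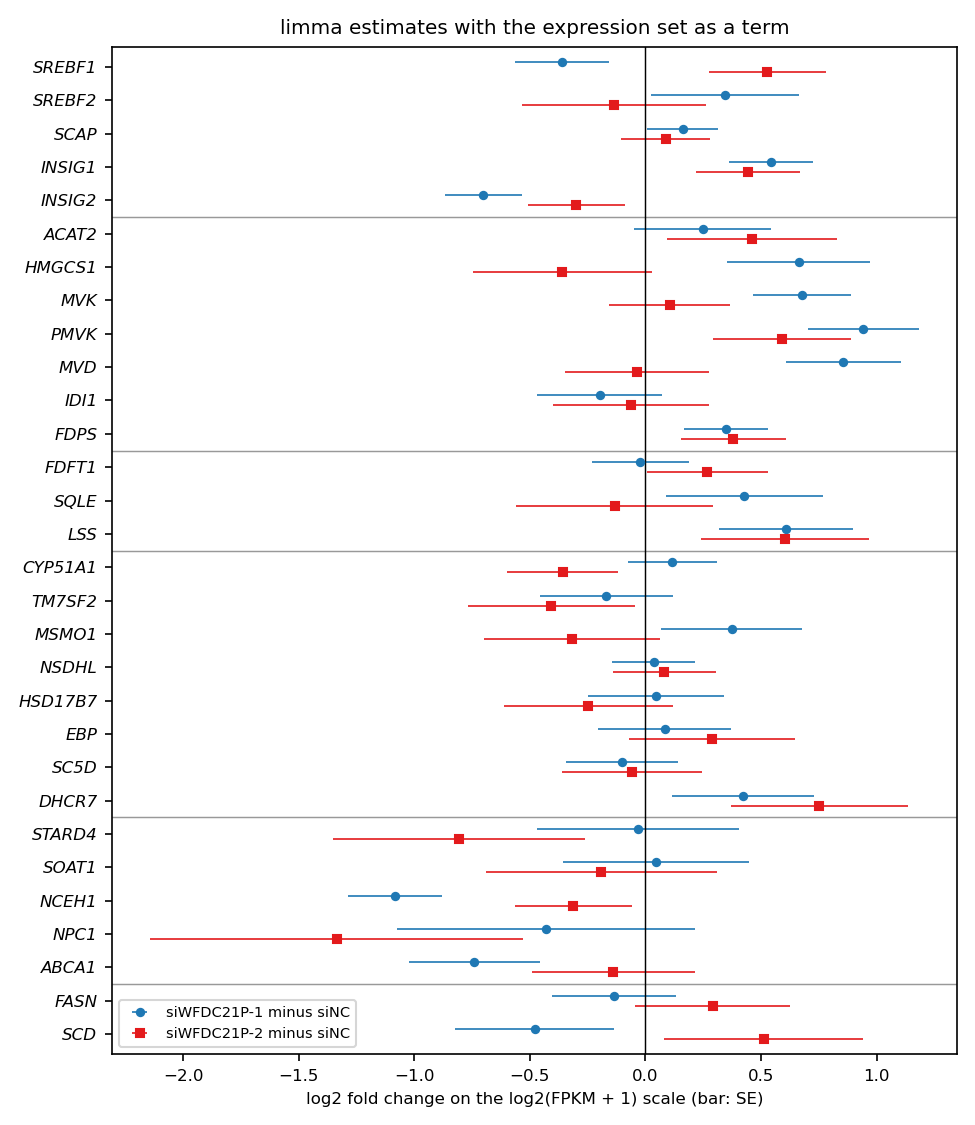
Estimated difference in log2(FPKM + 1) (horizontal axis) of each member for siWFDC21P-1 minus siNC (blue circles) and siWFDC21P-2 minus siNC (red squares), with the expression set in the limma model. Bars are standard errors; NCEH1 (-1.08 ± 0.20) and INSIG2 (-0.70 ± 0.17) lie farthest from 0 for siWFDC21P-1 relative to their errors, and no estimate passes at an adjusted p of 0.05.

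Among the regulators, the INSIG genes stood on opposite sides of the control in all 6 knockdown libraries. INSIG1 (hg38, chromosome 7, 155297776 to 155310235, plus strand), itself an SREBP target as well as the anchor of SCAP, had 15, 11.0 and 28.0 FPKM in siWFDC21P-1 replicates 1 to 3 and 31.3, 30.2 and 29 FPKM in siWFDC21P-2 replicates 1 to 3. The siNC libraries of sets 1 to 3 had 9.22, 17.1 and 21.9 FPKM. Every knockdown library was therefore above its control, by 1.20-fold (siWFDC21P-1 replicate 2) to 1.63-fold (siWFDC21P-1 replicates 1 and 3), and all 6 counting intervals of the ratio excluded 1. The log2 fold change for both siRNAs was 0.50 ± 0.13 (SE; limma adjusted p = 0.204). INSIG2 (chromosome 2, 118088452 to 118110997, plus strand), the other anchor, had 2.72, 2.98 and 4.06 FPKM with siWFDC21P-1 and 2.88, 2.56 and 2.56 FPKM with siWFDC21P-2. Its siNC libraries had 4.54, 8.67 and 3.51 FPKM. All 6 knockdown libraries were below their control, from 0.469 of it in siWFDC21P-1 replicate 3 to 0.821 in siWFDC21P-2 replicate 1, where the 95% counting interval was 0.675 to 0.998. The log2 fold change was -0.54 ± 0.14 for both siRNAs and -0.70 ± 0.17 for siWFDC21P-1 (limma adjusted p = 0.197 and 0.159).

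SREBF1 (chromosome 17, 17810399 to 17837002, minus strand) encodes the SREBP that mainly drives fatty acid genes. It had 21.1, 28.1 and 17.0 FPKM with siWFDC21P-1 and 32.0, 23.6 and 25.8 FPKM with siWFDC21P-2, against 29.8, 24.0 and 18.4 FPKM in the siNC libraries of sets 1 to 3. The 3 siWFDC21P-1 libraries lay below their controls (0.707, 0.946 and 0.710 of them) and the 3 siWFDC21P-2 libraries above theirs (1.74-, 1.29- and 1.40-fold). The difference between the siRNA effects was 0.89 ± 0.33 on the log2 scale (limma adjusted p = 0.830). SREBF2 (chromosome 22, 41833079 to 41907308, plus strand), whose product mainly drives cholesterol synthesis, showed no such order. It had 41.2, 23.1 and 39.6 FPKM with siWFDC21P-1, 38.3, 28.5 and 21.5 FPKM with siWFDC21P-2, and 27.9, 25.4 and 31.6 FPKM with siNC, so that 3 of 6 knockdown libraries were above their control. SCAP, the escort, stayed within 1.03- to 1.23-fold of its control in every knockdown library.

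The mevalonate arm runs from acetyl-CoA to farnesyl diphosphate. Of its enzymes, 6 of 7 had a positive log2 fold change for siWFDC21P-1 (median 0.66), against 4 of 7 for siWFDC21P-2 (median 0.10). The medians over all tested genes were 0.03 and 0.02. By library, 6, 6 and 7 of 7 were higher in siWFDC21P-1 replicates 1 to 3 (49.4%, 55% and 53.9% of all tested genes). The arm's medians there were 0.66, 0.18 and 0.67, and replicate 3 did not have less WFDC21P than its control. In siWFDC21P-2 replicates 1 to 3, 6, 4 and 4 of 7 were higher (47.1%, 53.2% and 53.8%). PMVK, the phosphomevalonate kinase (chromosome 1, 154924734 to 154936991, minus strand), had 24.0, 19.4 and 23.9 FPKM with siWFDC21P-1 and 20.5, 31.2 and 31.5 FPKM with siWFDC21P-2. Its siNC libraries had 9.38, 14.3 and 17.7 FPKM, all below the knockdown libraries of their sets. The ratio was 2.56, 2.07 and 1.67 for siWFDC21P-1 and 1.15, 1.76 and 1.78 for siWFDC21P-2. The log2 fold change was 0.80 ± 0.19 for both siRNAs together, the smallest adjusted p of the members in that fit (limma, 0.180). Without siWFDC21P-2 replicate 1 it was 0.89 and passed (limma adjusted p = 0.0344), in a fit that called 204 of all 13014 tested genes.

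MVD, the decarboxylase after PMVK (chromosome 16, 88651935 to 88663161, minus strand), had 19.5, 11.6 and 24.4 FPKM with siWFDC21P-1, against 7.42 FPKM in siNC replicate 1 and 14.1 FPKM in siNC replicate 2. With siWFDC21P-2 it had 12.6, 9.62 and 9.08 FPKM, against 10.6 FPKM in siNC replicate 3. It stood 1.56- to 2.64-fold above the control with siWFDC21P-1, and on either side of it with siWFDC21P-2. The log2 fold change was 0.86 ± 0.25 for siWFDC21P-1 (limma adjusted p = 0.221), and the difference of siWFDC21P-2 from it was -0.89 ± 0.40 (adjusted p = 0.830). HMGCS1, which makes HMG-CoA (chromosome 5, 43289395 to 43313512, minus strand), had 20.9, 14.7 and 24.1 FPKM with siWFDC21P-1 and 24.2, 15.7 and 12.1 FPKM with siWFDC21P-2. Its siNC libraries had 12.8, 11.7 and 21.7 FPKM, so all siWFDC21P-1 libraries were above their control, while siWFDC21P-2 replicates 2 and 3 were below theirs. MVK, the mevalonate kinase, reached 4.90, 2.92 and 8.18 FPKM with siWFDC21P-1, against 1.99 and 4.79 FPKM in siNC replicates 1 and 2. It had 2.32, 1.86 and 1.88 FPKM with siWFDC21P-2, against 1.80 FPKM in siNC replicate 3, and in replicates 2 and 3 the counting interval of the ratio included 1. FDPS, the farnesyl diphosphate synthase, was 1.06- to 1.66-fold its control, and 8 pseudogenes carry its name. ACAT2, the first enzyme, was 0.973- to 1.81-fold its control and shares 52.3% of its exon bases with genes on the opposite strand. IDI1, the isomerase between MVD and FDPS, ranged from 0.621 to 1.24 of its control.

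**Figure D3:**
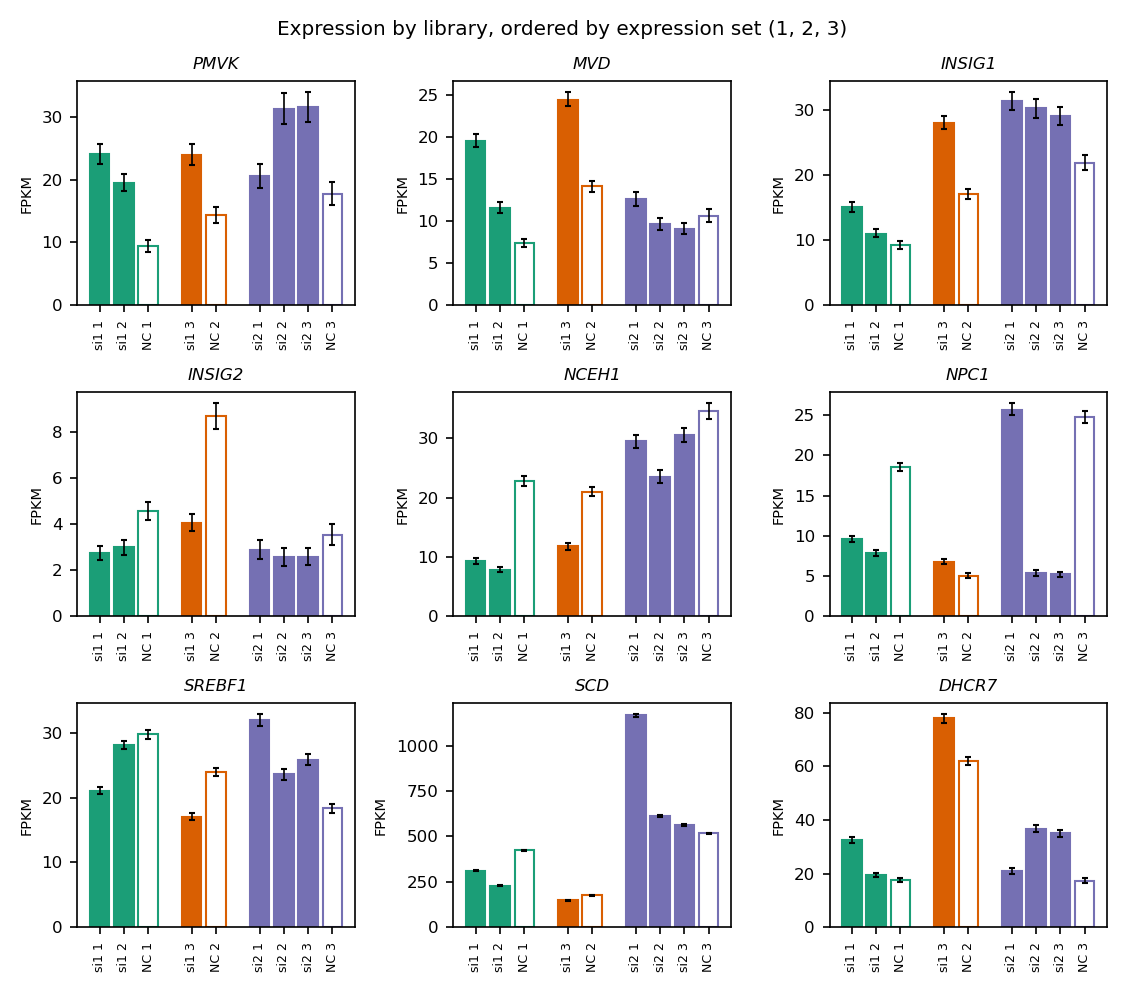
FPKM of 9 members by library, in panels with their own axes from 0. Filled bars are knockdown libraries (si1, siWFDC21P-1; si2, siWFDC21P-2) and open bars the siNC library of the same expression set, with colours for sets 1 (green), 2 (orange) and 3 (violet). Error bars are 95% Poisson intervals of the reads, for counting error alone; NPC1 is at 5.39 and 5.21 FPKM in siWFDC21P-2 replicates 2 and 3 but at 25.7 FPKM in replicate 1 and 24.8 FPKM in siNC replicate 3.

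From farnesyl diphosphate to lanosterol, 3 of 3 enzymes had a positive log2 fold change for both siRNAs together (median 0.21). From lanosterol to cholesterol 4 of 8 did (median -0.01), against 6 of 7 in the mevalonate arm (median 0.36). The median over all tested genes was 0.03. LSS, which closes squalene epoxide to lanosterol, was above its control in all 6 knockdown libraries, with 26.7, 12.9 and 32.1 FPKM for siWFDC21P-1 and 17.6, 22.5 and 21.4 FPKM for siWFDC21P-2, against 12.2, 19.9 and 13.1 FPKM in siNC. In siWFDC21P-1 replicate 2 the ratio was 1.05, with a 95% counting interval of 0.996 to 1.11. The log2 fold change of LSS for both siRNAs was 0.61 ± 0.21 (limma adjusted p = 0.272). SQLE, the squalene epoxidase and a rate-controlling enzyme (chromosome 8, 124998497 to 125022283, plus strand), had 31.2, 14.1 and 45.8 FPKM with siWFDC21P-1 and 63.8, 41.6 and 43.9 FPKM with siWFDC21P-2. Its siNC libraries had 16.9, 30 and 53.7 FPKM. SQLE was thus above its control in replicates 1 and 3 of siWFDC21P-1 and replicate 1 of siWFDC21P-2, and below it in the other 3. FDFT1, the squalene synthase, ranged from 0.795 to 1.34 of its control.

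Of the 8 enzymes from lanosterol to cholesterol, DHCR7 (chromosome 11, 71428193 to 71452868, minus strand) was the only one on the upper side in all 6 knockdown libraries. It had 32.4, 19.4 and 77.8 FPKM with siWFDC21P-1 and 20.8, 36.7 and 35.0 FPKM with siWFDC21P-2, against 17.5, 62.0 and 17.4 FPKM in siNC. The excess was greatest in siWFDC21P-2 replicates 2 and 3 (2.11- and 2.02-fold) and siWFDC21P-1 replicate 1 (1.86-fold). The log2 fold change was 0.75 ± 0.38 for siWFDC21P-2 and 0.55 ± 0.23 for both siRNAs (limma adjusted p = 0.756 and 0.329). MSMO1, the methylsterol oxidase, had 50.3, 23.6 and 39.3 FPKM with siWFDC21P-1, against 29.2 and 26.4 FPKM in siNC replicates 1 and 2. All siWFDC21P-2 libraries (23.3, 24.4 and 19.9 FPKM) were below siNC replicate 3 (28.2 FPKM). CYP51A1 was likewise below its control in all 3 siWFDC21P-2 libraries, at 0.533 to 0.743 of it, on 58 to 84 reads against 106. NSDHL lay within 0.926 to 1.26 of its control. EBP lay between 0.798 and 1.66, HSD17B7, a sterone reductase, between 0.604 and 1.45, SC5D, the sterol desaturase, between 0.654 and 1.19, and TM7SF2 between 0.509 and 1.38. All of these last members had libraries on both sides of the control.

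**Figure D4:**
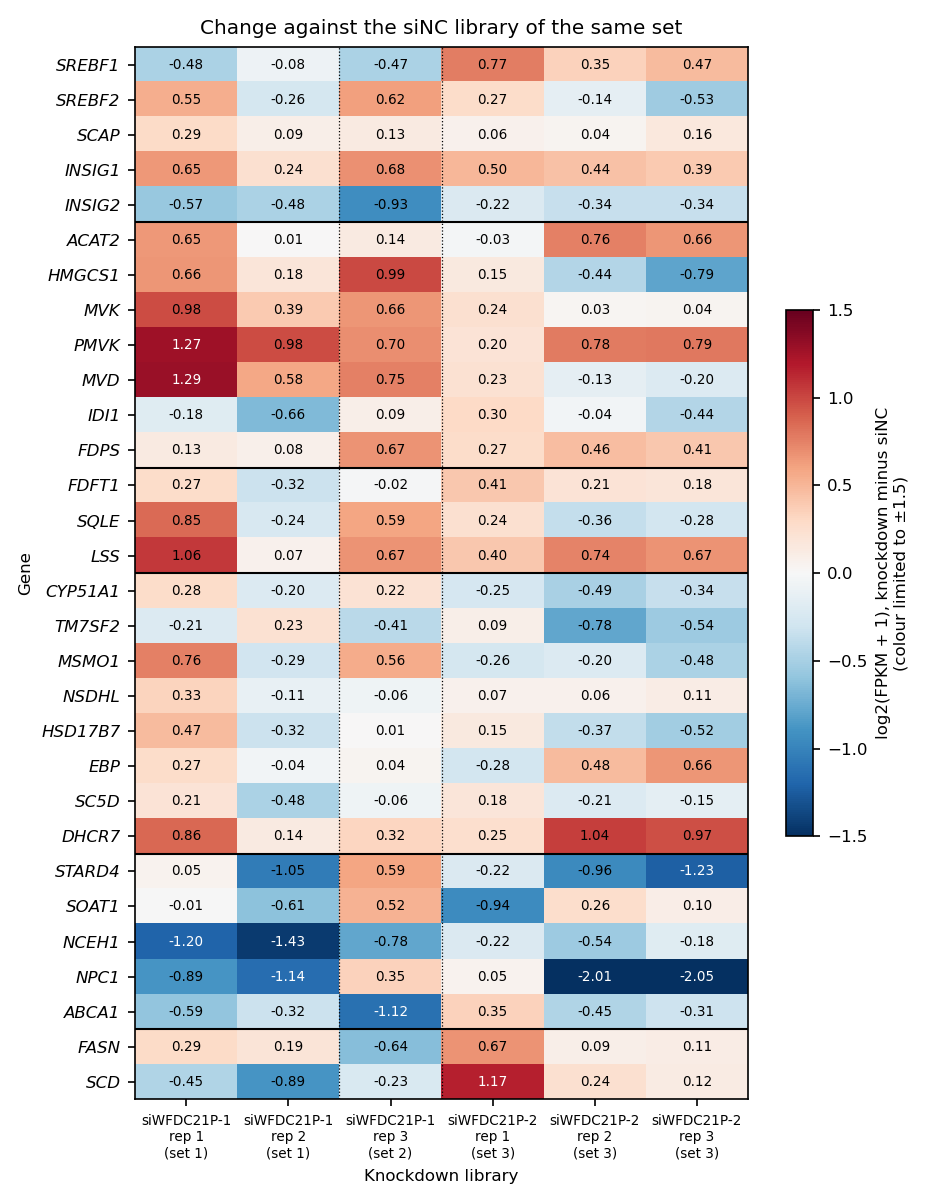
Difference in log2(FPKM + 1) between each knockdown library (columns) and the siNC library of its expression set for the 30 members (rows, by role), printed in each cell; red is higher and blue lower in the knockdown library, with colour limited to ±1.5. The synthesis enzymes are mostly positive in siWFDC21P-1 replicate 1 (16 of 18), the INSIG1 row is positive and the INSIG2 and NCEH1 rows are negative throughout, and NPC1 reaches -2.01 and -2.05 in siWFDC21P-2 replicates 2 and 3.

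The transport and storage genes lay mostly below the control. NCEH1, the hydrolase that frees cholesterol from stored esters (chromosome 3, 172630249 to 172711218, minus strand), had 9.37, 7.87 and 11.8 FPKM with siWFDC21P-1 and 29.5, 23.5 and 30.5 FPKM with siWFDC21P-2. Its siNC libraries had 22.8, 21.0 and 34.6 FPKM. All 6 knockdown libraries were lower than their control, at 0.410, 0.345 and 0.562 of it for siWFDC21P-1 and at 0.852, 0.680 and 0.882 of it for siWFDC21P-2. The log2 fold change was -1.08 ± 0.20 for siWFDC21P-1, the smallest adjusted p of any member in any comparison (limma, 0.113), and -0.31 ± 0.25 for siWFDC21P-2 (adjusted p = 0.761), where the sign turned (0.11) with no set term. The difference between the siRNA effects was 0.77 ± 0.32 (limma adjusted p = 0.830), and 0.47 without siNC replicate 1.

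NPC1, which moves cholesterol out of lysosomes (chromosome 18, 23506184 to 23586898, minus strand), held the largest single differences of the list on the log2(FPKM + 1) scale. It had 25.7, 5.39 and 5.21 FPKM in siWFDC21P-2 replicates 1 to 3, against 24.8 FPKM in siNC replicate 3. Replicates 2 and 3 were thus at 0.218 (95% counting interval 0.202 to 0.234) and 0.211 (0.196 to 0.226) of their control, whereas replicate 1 was at 1.04 (0.995 to 1.08). With siWFDC21P-1 it had 9.58, 7.87 and 6.75 FPKM, against 18.6 FPKM in siNC replicate 1 and 5.06 FPKM in siNC replicate 2, which put replicates 1 and 2 below and replicate 3 above the control. The spread was too wide for a call, with a log2 fold change of -1.34 ± 0.81 for siWFDC21P-2 (limma adjusted p = 0.756). Without siWFDC21P-2 replicate 1 it was -2.03 and passed (limma adjusted p = 0.0391). That fit called 902 of all 13014 tested genes, and NPC1 was the only member among them.

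ABCA1 had 0.146, 0.374 and 1.13 FPKM with siWFDC21P-1, on 48, 126 and 360 reads, against 0.720 and 3.63 FPKM in siNC replicates 1 and 2. All 3 were below their control, at 0.203 to 0.520 of it. With siWFDC21P-2 it had 7.22, 3.72 and 4.23 FPKM, on both sides of the 5.47 FPKM of siNC replicate 3. Its log2 fold change was -0.74 ± 0.28 for siWFDC21P-1 (limma adjusted p = 0.313). It was -0.45 without siWFDC21P-1 replicate 3 or siNC replicate 2, and -1.12 without siNC replicate 1. STARD4, a sterol carrier of the cytosol, was below its control in all siWFDC21P-2 libraries, at 0.845, 0.476 and 0.383 of it, and at 1.03, 0.432 and 1.65 of it in the siWFDC21P-1 libraries. SOAT1, which esterifies cholesterol for storage, ranged from 0.492 (siWFDC21P-2 replicate 1) to 1.47 (siWFDC21P-1 replicate 3).

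Of the fatty acid genes, SCD lay on the same sides of the control as SREBF1. SCD (chromosome 10, 100347124 to 100364834, plus strand) had 310.5, 227.9 and 148.9 FPKM with siWFDC21P-1 and 1165.6, 611.3 and 560.8 FPKM with siWFDC21P-2, against 423.2, 174.7 and 516.5 FPKM in the siNC libraries of sets 1 to 3. It lay below the control in each siWFDC21P-1 library (0.734, 0.539 and 0.853 of it) and above it in each siWFDC21P-2 library (2.26-, 1.18- and 1.09-fold). The difference between the siRNA effects was 0.99 ± 0.55 on the log2 scale (limma adjusted p = 0.830). In this contrast 2 members were higher at an unadjusted p under 0.05, SREBF1 and NCEH1 (6.67%, against 2.35% of all tested genes), with 0 lower (against 3.05%). FASN had 124.4, 115.9 and 78.2 FPKM with siWFDC21P-1 and 76.6, 50.9 and 51.7 FPKM with siWFDC21P-2, against 101.7, 122.1 and 47.8 FPKM in siNC. Its siWFDC21P-2 libraries were all above their control and its siWFDC21P-1 libraries on both sides.

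Replicates of the same siRNA in the same set also differed from each other in these genes. Against siNC replicate 1, siWFDC21P-1 replicate 1 had 16 of 18 synthesis enzymes higher, with a median log2 difference of 0.56, where 49.4% of all tested genes were higher and their median was 0.00. In replicate 2, against the same control, 9 of 18 were higher (median -0.01, all genes 55%). Set directly against each other, replicate 1 was above replicate 2 for 26 of 30 members (86.7%) and 17 of 18 enzymes, against 42% of all tested genes. The median difference was 0.48 over the members and -0.04 over all genes. SQLE, for example, had 31.2 FPKM in replicate 1 and 14.1 FPKM in replicate 2, and MSMO1 50.3 and 23.6 FPKM. In set 2, siWFDC21P-1 replicate 3 had 14 of 18 enzymes above siNC replicate 2 (median 0.27, all genes 53.9% higher).

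In set 3, siWFDC21P-2 replicate 1 lay close to its control over all genes, with a median absolute log2 difference of 0.137, against 0.343 and 0.328 for replicates 2 and 3. Its enzymes were nonetheless mostly above the control, 14 of 18 with a median of 0.19 (all genes 47.1% higher), whereas replicates 2 and 3 had 9 of 18 higher each (medians -0.01 and -0.06, all genes 53.2% and 53.8% higher). Replicate 1 stood above replicate 2 for 22 of 30 members (44.3% of all genes) and above replicate 3 for 20 of 30 (43.5%), and replicate 2 above replicate 3 for 16 of 30 (50.4%). HMGCS1, at 24.2, 15.7 and 12.1 FPKM in replicates 1 to 3, shows this spread. Differences of over 1 log2 unit from the control were few. In siWFDC21P-1 replicate 1, PMVK, MVD and LSS were that far above it (10%, against 3.33% of all genes) and NCEH1 below it (3.33%, against 4.15%). In replicate 2, STARD4, NCEH1 and NPC1 were below (10%, against 2.47%), and in replicate 3 ABCA1 (3.33%, against 1.84%). In siWFDC21P-2 replicate 1, SCD was above (3.33%, against 0.576%), and in replicate 2, DHCR7 was above (3.33%, against 5.18%) and NPC1 below (3.33%, against 4.26%). In replicate 3, STARD4 and NPC1 were below (6.67%, against 3.71%). No member was that far above the control in siWFDC21P-1 replicates 2 and 3 (3.03% and 2.02% of all genes) or siWFDC21P-2 replicate 3 (4.78%), or that far below it in siWFDC21P-2 replicate 1 (0.661%).

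Members on the same side of the control in every library of a siRNA were counted as well. With siWFDC21P-1 there were 10 on the upper side (33.3%, against 27.9% of all tested genes): SCAP, INSIG1, ACAT2, HMGCS1, MVK, PMVK, MVD, FDPS, LSS and DHCR7. The lower side held 5, SREBF1, INSIG2, NCEH1, ABCA1 and SCD (16.7%, against 20.7%). Without replicate 3 the upper side held 11 (36.7%, against 39.3%) and the lower side 8 (26.7%, against 32.8%), which took in FASN on the upper side and IDI1, SOAT1 and NPC1 on the lower. With siWFDC21P-2 there were 12 on the upper side (40%, against 26.9%), among them SREBF1, FDFT1, NSDHL, FASN and SCD beside the 7 shared with siWFDC21P-1. The lower side held 5, INSIG2, CYP51A1, MSMO1, STARD4 and NCEH1 (16.7%, against 26%).

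A further list of 37 sterol and lipid genes outside the members was read in the same fits, and 36 of them were tested. ABCG1, a second sterol exporter, missed the 1 FPKM mean, with 2.13 FPKM in siNC replicate 2 and at most 0.384 FPKM elsewhere. None of the 36 passed in any comparison. ERLIN2, an endoplasmic reticulum protein that helps to degrade sterol-regulated proteins, came nearest. It had 9.61, 8.81 and 7.69 FPKM with siWFDC21P-1 and 8.60, 9.15 and 7.78 FPKM with siWFDC21P-2, against 3.26, 2.85 and 6.37 FPKM in siNC. All 6 knockdown libraries were above the siNC library of their set for this gene, as they were for 10.8% of all tested genes. Its log2 fold change was 1.22 ± 0.16 for siWFDC21P-1 and 0.89 ± 0.18 for both siRNAs (limma adjusted p = 0.0618 and 0.148), and the first passed when genes under a mean of 5 FPKM were left out (adjusted p = 0.0446).

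MBTPS1, the protease that makes the first SREBP cleavage, had 25.7, 31.5 and 23.9 FPKM with siWFDC21P-1 and 17.7, 20.0 and 18.6 FPKM with siWFDC21P-2, against 17.1, 17.2 and 14.8 FPKM in siNC. Its log2 fold change for both siRNAs was 0.49 ± 0.13 (limma adjusted p = 0.208). MBTPS2, the protease of the second cut, lay below its control in all 6 knockdown libraries (-0.36 ± 0.19, adjusted p = 0.413), as did ACSS2, which makes acetyl-CoA from acetate (-0.45 ± 0.17, adjusted p = 0.291). With siWFDC21P-1, LPCAT3, a phospholipid acyltransferase, had a log2 fold change of -0.64 ± 0.23 (limma adjusted p = 0.286). With siWFDC21P-2 the nearest were FADS2, a fatty acid desaturase with 25.6, 37.8 and 31.4 FPKM against 13.3 FPKM in siNC replicate 3 (1.18 ± 0.35), and ACACA, the acetyl-CoA carboxylase (0.62 ± 0.24). On the lower side were OSBP, an oxysterol-binding protein (-0.71 ± 0.30), and NUS1, a subunit of the dolichol-making transferase (-0.63 ± 0.26; limma adjusted p = 0.756 for all 4). Over the 36 genes the median log2 fold change for both siRNAs was 0.02, beside 0.03 over all tested genes.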

How the data were processed

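Each library came as 1 deposited file of FPKM values by Ensembl gene, which the authors computed. Per the submitters' processing notes the tools include HTSeq 0.6.0, Bowtie2 2.2.3 and HISAT2 2.1.0 with build hg38, and their roles are not stated; strandedness is not given in the sources used here. Files came in 2 naming styles with different gene lists, and genes in all 9 files were used. With GENCODE 29 exon lengths, 95.2 to 96.1% of low FPKM values (under 50 reads) were whole reads within 0.02 reads, which recovered reads for 24701 genes (92.7%) and all 30 members (25 at the GENCODE length, 5 at a searched length). Ratio intervals (95%) are exact, conditional on the reads of both libraries, and, like the Poisson intervals, cover counting error only.

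The 13014 genes averaging 1 FPKM or more entered limma 3.58.1 (trended variances, R 4.3.3) on the log2(FPKM + 1) scale with expression set and siRNA as terms, Benjamini-Hochberg at 0.05 over all of them. Fold changes on this scale understate those of low genes. The sets are average-linkage clusters of 1 minus Pearson r at height 0.15, and each knockdown library is set against its siNC library. Replicates may be technical, since separate cultures are not stated, so p-values measure the spread between libraries. The members, the sets and the gene lists were chosen with earlier results of these data known. All members are named; of the further list, the 2 genes with the smallest p in each direction per comparison with siNC, where none passed; ABCG1, not tested, was added after its values were seen. Alternatives were a naming-style term, no such term, a replicate block, other pseudocounts, filters and scalings, limma without trend, limma-voom on recovered reads (1 call for siWFDC21P-1, 0 in the other comparisons), and each library left out.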

Additional observations from a re-analysis of the deposited data

Results flagged for a closer look

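SREBF1 and SCD lay below the control in all siWFDC21P-1 libraries and above it in all siWFDC21P-2 libraries. Of all tested genes, 20.7% lay below it in all siWFDC21P-1 libraries and 26.9% above it in all siWFDC21P-2 libraries. The share that did both is not given here. The smallest departures were 0.946 of the control for SREBF1 (siWFDC21P-1 replicate 2) and 1.09-fold for SCD (siWFDC21P-2 replicate 3). For SREBF1 the median log2 difference from the siNC library of the set was 0.47 over the siWFDC21P-2 libraries and -0.47 over the siWFDC21P-1 libraries, a gap of 0.94, and the limma contrast of the siRNA effects gave an adjusted p of 0.830. For SCD the medians were 0.24 over the siWFDC21P-2 libraries and -0.45 over the siWFDC21P-1 libraries, a gap of 0.69 (limma adjusted p = 0.830). The siRNAs sit in different expression sets with different siNC libraries, so the siRNA and the set cannot be told apart in these gaps.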

How the results depend on the processing

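The counts of called genes moved with the processing, and the direction of the named fold changes moved once. Over 33 named log2 fold changes and 661 recomputed values, 656 kept their direction and their side of the threshold and 4 came to pass (PMVK, NPC1 and ERLIN2 without siWFDC21P-2 replicate 1, ERLIN2 also with a mean of at least 5 FPKM). NCEH1 for siWFDC21P-2 had the opposite sign (0.11) with no background term. For both siRNAs together (1 gene called), 0 genes were called with a naming-style term, no background term, the replicate block, no filter, median-centred values or limma-voom on recovered reads, 2 with a pseudocount of 0.1, and 0 to 204 when a library was left out. For siWFDC21P-1 (3 called), 0 were called with a naming-style term, no background term, its own sets only, the replicate block, no filter or median-centred values, 26 with a mean of at least 5 FPKM, 16 after quantile normalization, 1 with limma-voom, and 0 to 153 with a library left out. For siWFDC21P-2 and for the difference (0 called each), 17 and 7 were called with no filter, and 0 to 902 and 0 to 182 with a library left out. All the highest values came without siWFDC21P-2 replicate 1. Members passing numbered 0 under every alternative, except 0 to 1 with a library left out, where PMVK passed for both siRNAs and NPC1 for siWFDC21P-2, both without that library. The cause was not tested. The replicate block (0 calls in each comparison) used numbers that do not pair the libraries, since same-numbered libraries did not deviate together in every pair. The siWFDC21P-2 and difference contrasts could not be fitted without siNC replicate 3, the lone control of its set. Without siWFDC21P-1 replicate 3, a choice made after seeing the data, 8 members stood below the control in every siWFDC21P-1 library in place of 5, 11 above in place of 10, and for both siRNAs 8 above in place of 7 and 2 below in either case. With no background term these log2 fold changes moved by over 1.5 times: for siWFDC21P-1, ABCA1 to -1.31 and LPCAT3 to -0.02; for siWFDC21P-2, ACACA to 0.97, DHCR7 to 0.16, FADS2 to 2.89, NPC1 to -0.51 and OSBP to -0.20; for both siRNAs, DHCR7 to 0.30; for the difference, NCEH1 to 1.44, SCD to 1.74 and SREBF1 to 0.30. So did ABCA1 for siWFDC21P-1 with a pseudocount of 0.1 (-1.41) or limma-voom (-1.72), and, with the replicate block, the SCD difference (0.39) and NCEH1 for siWFDC21P-2 (-0.17). NCEH1 for siWFDC21P-2 was -0.20 without siWFDC21P-2 replicate 2. Reads were fewest for ABCA1 (48), CYP51A1 (58) and TM7SF2 (58).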
